A study of Mus musculus with 82 samples.

Results

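Section 335 of the suprachiasmatic nucleus is the set of hexagons that share the anterior-posterior coordinate 335, and it holds 13 of the 82 libraries of the series. The dorsal-ventral coordinate in the labels divided it into a high group of 6 hexagons at 700 or more and a low group of 7 hexagons under 700. The coordinate alone set the groups, and no measured value entered the choice. The hexagons were laser-captured from cresyl violet-stained sections of the suprachiasmatic nucleus (SCN), and each gave a library made by Smart-seq2, which amplifies whole cDNAs from minute RNA amounts, and Tn5 tagmentation. All 13 came from C57BL/6 mice aged 8 weeks with no stated genotype change or treatment, so the labels separate the groups by position alone. The coordinates have no unit in the labels, which also do not say which end of the axis is dorsal. The labels name no animal, so hexagons of a group may come from the same animal and the same slice. Every p-value over hexagons then measures only the spread between hexagons, and is too small if some share an animal.

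The SCN, in the hypothalamus, is the master circadian clock of mammals, and nearly all of its neurons are GABAergic. It is usually described as a ventral core, which receives retinal input and contains neurons with vasoactive intestinal peptide (Vip) and gastrin-releasing peptide (Grp), and a dorsal shell rich in arginine vasopressin (Avp). Neuromedin S (Nms) is made by a broader set of SCN neurons that includes many Vip and Avp cells, and signalling of Vip through its receptor Vipr2 keeps the cells' clocks in step. The question put to the data was how the transcripts of 1 section differ along this axis.

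The 13 libraries held 176618 to 2843366 counts, and 8121 to 13419 genes were detected per hexagon. The high group ranged from 176618 to 2506639 counts and the low group from 558058 to 2843366, with an exact permutation p of 0.134 (two-sided) for the log2 totals. Hexagons 7A2, 7A4 and 7A6 belong to library set F (2 high, 1 low) and the other 10 to set G (4 high, 6 low). The section holds 6 of the 10 deepest libraries of the series, all in set G. The titles place the hexagons in 3 grid columns. Medial-lateral coordinates were 1171 to 1179 in column A, 1289 to 1291 in column B and 1396 to 1414 in column C. Values below are CPM, counts scaled to a common library total with edgeR's TMM factors, and differences are log2 fold changes of the high group over the low group. A count of 0 allows up to between 1.06 and 17 CPM, depending on the library (3 counts of its total).

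Column C stood apart from the other columns in Six6 and Rgs16, which mark the SCN, but not in every SCN marker. Six6, a homeobox factor needed for SCN formation, had 11.6, 12 and 6.95 CPM in hexagons 7C2, 7C4 and 7C6, against 76.0 to 242 CPM in the other 10. Rgs16, a regulator of G-protein signalling with a circadian rhythm in the SCN, had 11.6, 32.9 and 89.8 CPM there, against 289 to 1685 CPM. Vip was mixed in this column, with 1124, 3.99 and 8.69 CPM in hexagons 7C2, 7C4 and 7C6, the first above every hexagon of column A. The GABA-synthesising enzyme gene Gad2 was present throughout, from 427 to 1545 CPM, and Slc17a6, the vesicular glutamate transporter of hypothalamic glutamatergic neurons, stayed at or below 19.4 CPM. Oxt, the oxytocin gene of the neighbouring neurosecretory nuclei, had no count in any hexagon. Of the high group 2 hexagons lie in column C and of the low group 1. The Vip, Avp and Nms differences and the counts of genes are therefore also given without that column.

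Vip had the widest spread of the 3 SCN marker peptides, and its highest values were in the high group. The gene lies on chromosome 10 from 5639218 to 5647617, plus strand, in the GENCODE annotation of GRCm38 that is used for all positions here. In column B, from the highest to the lowest dorsal-ventral coordinate, it had 6258 and 3772 CPM in the high group and then 430, 30.3 and 4.96 CPM in the low group. In column A the values were 906 and 257 CPM, then 405, 170 and 3.80 CPM. In column C they were 1124 and 3.99 CPM, then 8.69 CPM.

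The groups did not overlap in column B but overlapped in column A, where hexagon 7A4 was below 7A6, and in column C, where hexagon 7C4 had 4 Vip counts among 1055026. Across the section the mean was 2053 ± 2459 CPM (SD, n = 6) in the high group and 150 ± 192 CPM (SD, n = 7) in the low group. The edgeR log2 fold change was 3.79 (SE 1.47, unadjusted p = 0.0251), and it did not pass after adjustment over all genes. The mean of log2(CPM + 1) differed by 3.71, with an exact two-sided permutation p of 0.0664. Adjusted by Benjamini-Hochberg over the 17 values tested this way that exact p was 0.383, and the smallest p these group sizes allow is 0.00117.

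The Vip difference of mean log2(CPM + 1) moved most with hexagon 7C4. Without it the difference was 5.08 and the exact permutation p 0.00758, and without column C the difference was 4.81 and the exact permutation p 0.0286. Leaving out hexagon 7A6 or 7B5 of the low group gave differences of 4.26 and 4.27, each with an exact permutation p of 0.0498. Leaving out hexagon 7B1, the highest, gave 3.02 with an exact permutation p of 0.131. With any 1 of the remaining hexagons left out, the exact permutation p lay between 0.0671 and 0.126. The edgeR log2 fold change of Vip moved most without hexagon 7B1, to 3.03 (SE 1.45, unadjusted p = 0.0627), and was 4.05 (SE 1.31) without hexagon 7C4. Within library set G alone the Vip log2 fold change was 4.68 (SE 1.78), and with the coordinate as a continuous term the Vip slope was 1.32 on the log2 scale per 100 coordinate units (SE 0.34). In tissue hexagons, more cells of a type and more RNA per cell cannot be told apart.

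**Figure D1:**
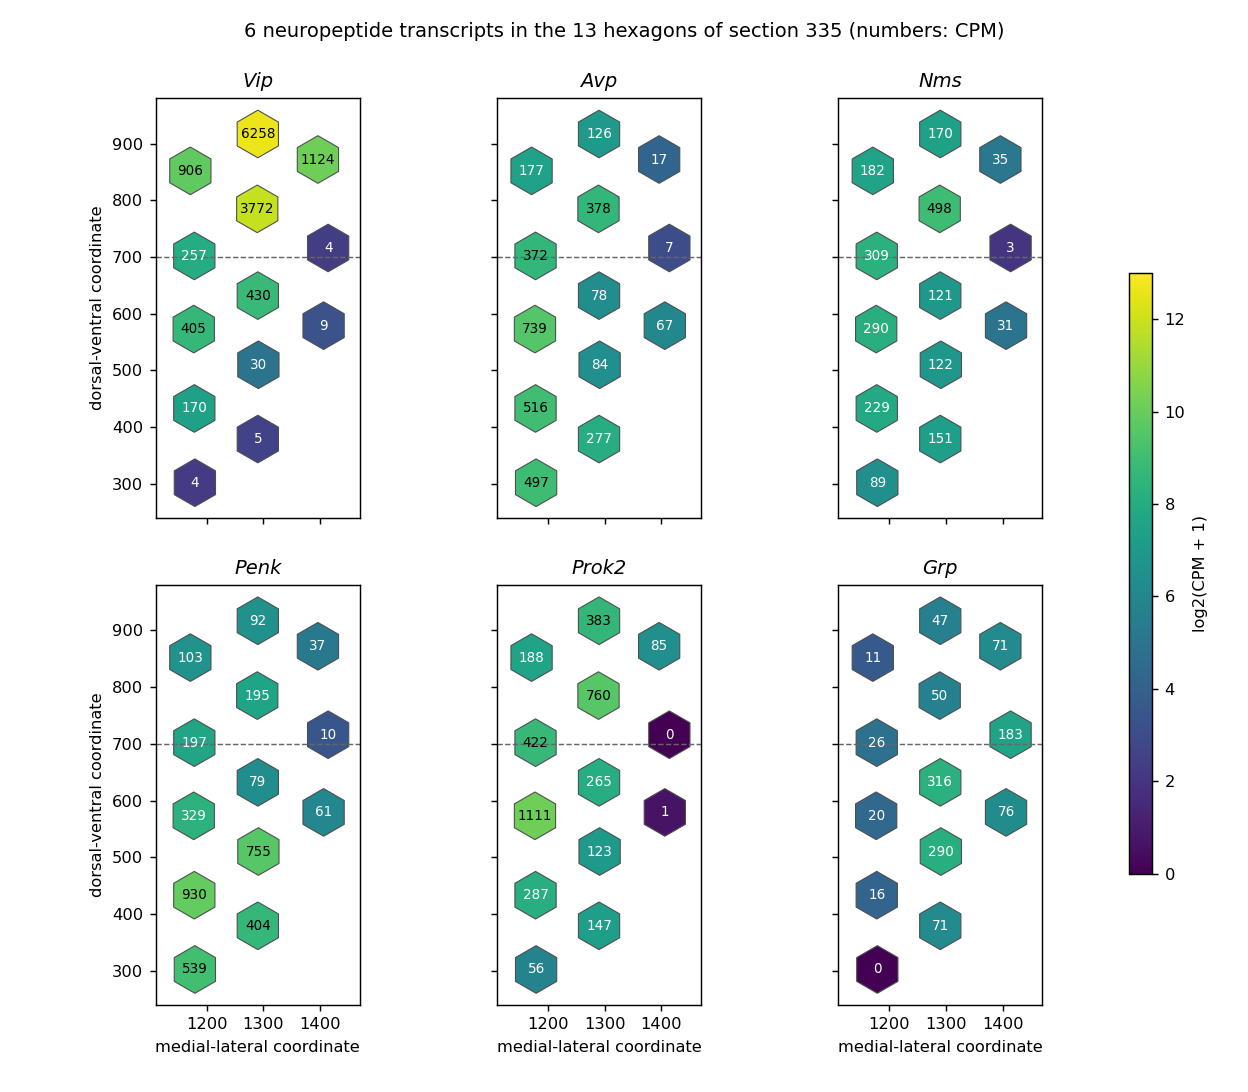
Each panel places the 13 hexagons of section 335 by medial-lateral (x) and dorsal-ventral (y) coordinate, both without a unit, and colours them by log2(CPM + 1) of 1 neuropeptide transcript, with the CPM printed inside. The dashed line at 700 divides the high group from the low group. Vip is highest at the top of column B, at 6258 CPM, while Penk is highest in the low hexagons of columns A and B, up to 930 CPM.

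Avp (chromosome 2, 130580620 to 130582554, minus strand) spanned both groups. It had 6.98 CPM at the lowest, 151 at the median and 378 at the highest in the high group, and 67.2, 277 and 739 CPM in the low group. The 3 largest Avp values were in the low hexagons of column A, 739, 516 and 497 CPM, and the 2 smallest were in the high hexagons of column C. The groups overlapped broadly, with a log2 fold change of -0.84 (SE 0.85, unadjusted p = 0.337 by edgeR) and a difference of means on log2(CPM + 1) of -1.32 (exact permutation p = 0.249). Without column C the Avp difference was -0.16 (exact permutation p = 0.867), and without hexagon 7C4 alone it was -0.62 (exact permutation p = 0.528).

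Nms (chromosome 1, 38939149 to 38950276, plus strand) had no direction that held across summaries. Its lowest, median and highest values were 2.99, 176 and 498 CPM in the high group and 31.3, 122 and 290 CPM in the low group. The edgeR log2 fold change was 0.45 (SE 0.69, unadjusted p = 0.528), whereas the mean of log2(CPM + 1) differed by -0.40 (exact permutation p = 0.744). The latter was 0.52 without hexagon 7C4 and 0.77 without column C, and the former was -0.092 without hexagon 7B3. Without column C the edgeR log2 fold change was 0.82 (SE 0.35, unadjusted p = 0.0301, adjusted p = 0.899). Both Nms summaries were thus positive in that setting, which was chosen after seeing the data.

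Penk (chromosome 4, 4133531 to 4138819, minus strand), which encodes the precursor of the enkephalins, was the other peptide with an unadjusted p under 0.05. It had 9.98, 97.3 and 197 CPM at the lowest, median and highest in the high group, against 60.8, 404 and 930 CPM in the low group. In columns A and B, 5 of the 6 low hexagons lay above every high hexagon, the exception being 7B5 at 79.4 CPM. The log2 fold change was -2.07 (SE 0.71, unadjusted p = 0.0109, edgeR), and it was between -2.37 and -1.78 with each hexagon left out in turn. Penk shares exonic sequence with a transcript on the opposite strand, and reads of such pairs cannot be told apart without strand.

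Of the other peptides tested, Prok2 had a positive log2 fold change and Grp, Cck and Sst (somatostatin) negative ones. None had an unadjusted p under 0.05 (edgeR), and Sst came nearest with -2.04 (unadjusted p = 0.0584). Prok2, prokineticin 2, an SCN output signal, had 0 to 760 CPM in the high group (median 286) and 0.579 to 1111 CPM in the low group (median 147), with a log2 fold change of 0.13 (SE 1.17). Grp had its largest values near the middle of the axis, with 316 and 290 CPM in hexagons 7B5 and 7B7 and 183 CPM in 7C4. Its medians were 48.5 CPM in the high group and 71.2 CPM in the low group (log2 fold change -0.77, SE 0.87).

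Cck, cholecystokinin, stayed at or below 78.7 CPM (log2 fold change -0.36, SE 1.02). Of 20 SCN neuropeptide genes listed, 8 passed the filter on low counts, 3 with a positive and 5 with a negative fold change. Over all 9746 genes tested, 4527 (46.4%) had a positive fold change, which is the background for this count and those of the other lists. On the authors' deposited RPKM, which allow levels of different genes to be compared per length, the order of medians in the high group was Vip (304), Avp (255), Nms (170), Prok2 (143), Penk (57.7) and Grp (43.5). In the low group it was Avp (471), Penk (242), Nms (116), Prok2 (75.3), Grp (65.9) and Vip (8.49). Neighbours in these orders overlapped between hexagons, and the places of Vip and Penk were the ones that moved most.

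Across the whole transcriptome no gene passed. Of 9746 genes with at least 10 counts in at least 6 hexagons, 0 had an adjusted p under 0.05 in edgeR's quasi-likelihood test (0% called), and DESeq2 also called 0. At an unadjusted p under 0.05 edgeR counted 266 genes (2.73%), 105 with a higher fitted level in the high group (1.08%) and 161 lower (1.65%), and DESeq2 counted 390. The biological coefficient of variation was 0.736, a wide spread between hexagons of the same group. The lowest adjusted p was 0.9999. All single genes named here therefore did not pass, and their values are given as description.

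Of the genes tested, 14 (0.144%) had CPM values that did not overlap between the groups, 6 higher (0.0616%) and 8 lower (0.0821%) in the high group. A gene without any difference would be separated like this with a probability of about 0.00117, the smallest exact p given above. The share found is near that, so the genes below are described by their values and not as a result. Among those lower were Dlx1, a homeobox factor of GABAergic neurons, with 0 to 15.7 CPM in the high group and 26.7 to 49.8 CPM in the low group, and Unc13a, a vesicle-priming factor, with 14 to 71.9 CPM against 72.9 to 128 CPM. Pcdh10, a protocadherin, had 39.9 to 113 CPM against 125 to 301 CPM. Among those higher was the aminophospholipid flippase gene Atp8a1, with 377 to 410 CPM against 195 to 359 CPM. Dlx1 and Atp8a1 were singled out after their values were seen.

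Among the abundant genes with the lowest p-values on the higher side was Ctss (chromosome 3, 95526786 to 95556403, plus strand), cathepsin S, a lysosomal protease of microglia. It had 22.8, 132 and 227 CPM at the lowest, median and highest in the high group and 4.14, 26.6 and 74.0 CPM in the low group. Of the high hexagons 5 lay at 125 CPM or more, above every low hexagon, and only 7A2 lay among them. The log2 fold change was 2.17 (SE 0.52, unadjusted p = 4.69e-04, adjusted p = 0.9999, edgeR), and DESeq2 gave Ctss an adjusted p of 0.0895.

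Itgb8, the integrin beta 8 subunit that takes part in activating TGF-beta, had 211, 304 and 388 CPM in the high group and 108, 145 and 226 CPM in the low group, a log2 fold change of 0.94 (SE 0.23). Only hexagons 7B9 and 7C6 of the low group reached the lower end of the high group. Other genes on this side were Fech, ferrochelatase of haem synthesis (1.47), Arid5b, a DNA-binding factor (1.19), Mgat5, an N-glycan branching enzyme (0.92), Mtss1, an actin and membrane regulator (0.77), Ubl3 (0.81), and Mkl2, a coactivator of serum response factor (0.65), the numbers being log2 fold changes.

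Hbb-bs, a beta-globin gene, had the largest fold change of the genes named on this side, 7.79 (SE 2.11), on 9359 CPM in hexagon 7A2, 1355 in 7C2 and 304 in 7C4, and at most 41.8 CPM in any other hexagon. DESeq2 gave Hbb-bs the same adjusted p as Ctss, 0.0895. The Hbb-bs and Hbb-bt genes are near-identical, so their counts are uncertain as a split.

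On the lower side, Nptx1 (chromosome 11, 119538719 to 119547753, minus strand), neuronal pentraxin 1, a secreted protein that clusters AMPA receptors, had 2.12, 24.6 and 44.9 CPM in the high group and 34.1, 81.6 and 327 CPM in the low group. Of the low hexagons 5 lay above every high hexagon, and 7A6 and 7A8 lay just below 7C4. The log2 fold change was -2.33 (SE 0.63, unadjusted p = 0.0015, adjusted p = 0.9999, edgeR).

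Mef2c, an activity-regulated transcription factor, had 19.2, 25.6 and 34.8 CPM in the high group and 17.8, 71.1 and 176 CPM in the low group (log2 fold change -1.61, SE 0.50). Within each of columns A and C its low hexagons lay above the high ones. Idh3g, a subunit of mitochondrial isocitrate dehydrogenase, had 175 to 325 CPM against 304 to 497 CPM (-0.70, SE 0.19). The remaining genes on this side by log2 fold change were Cdh12, a cadherin (-2.10), Rfk, riboflavin kinase (-0.90), Pcdh10 (-0.88), Ppid, a cyclophilin (-0.87), Mga, a partner of Max (-0.80), Syngr3, a synaptic vesicle protein (-0.65), and Wrb, which takes part in inserting tail-anchored proteins (-0.59). By the rule that chose them, all 19 genes named for a low p kept their sign with each hexagon left out.

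**Figure D2:**
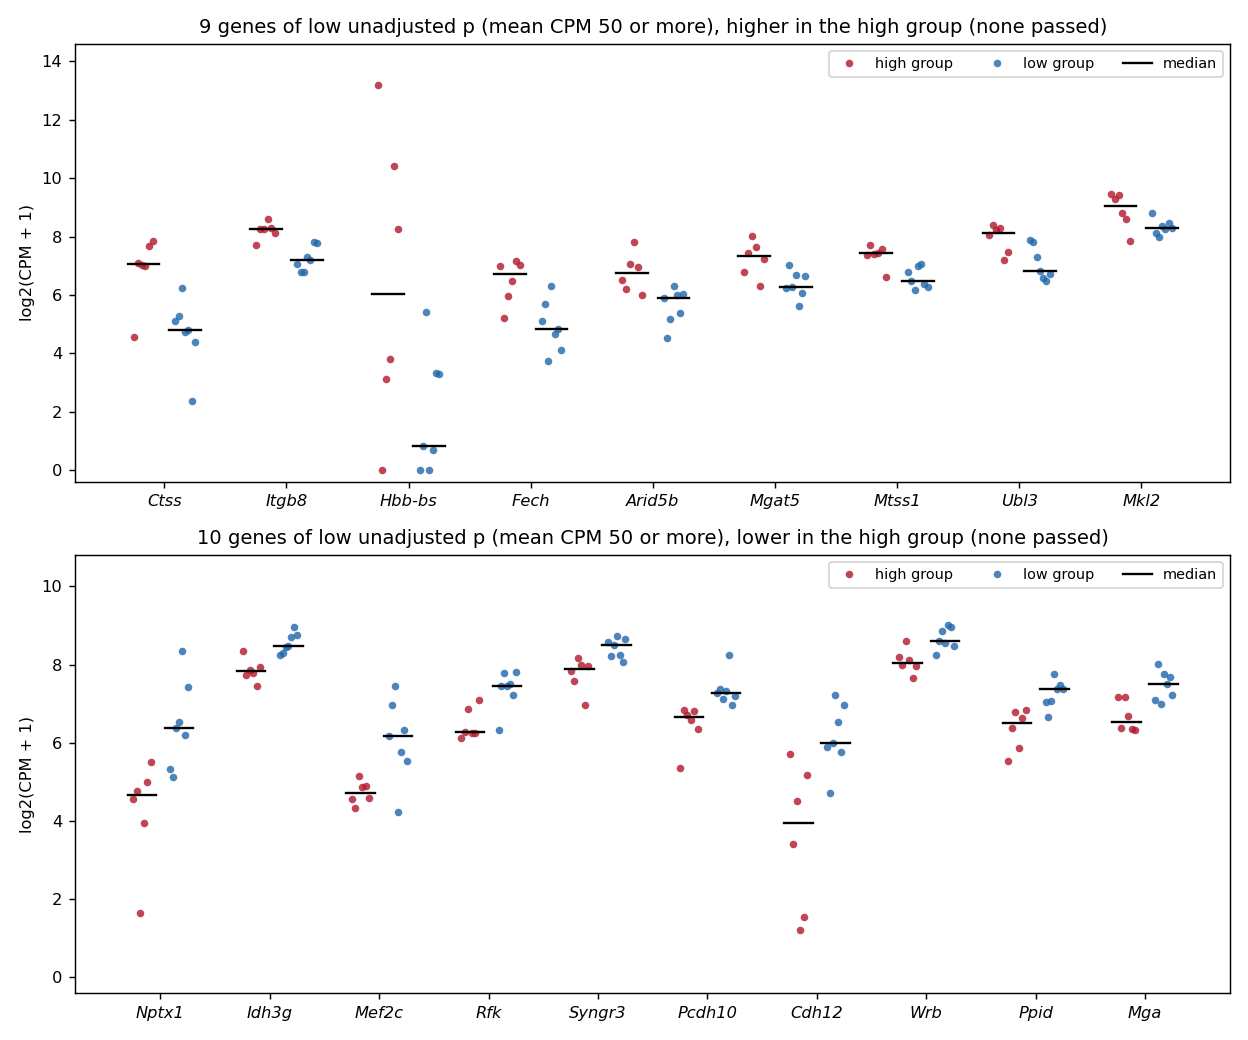
Each point is log2(CPM + 1) of 1 gene in 1 hexagon of section 335, for 19 genes of low unadjusted p and mean CPM of 50 or more, 9 higher and 10 lower in the high group, and bars are group medians. None passed adjustment, and the points of the groups overlap for all of them but Pcdh10; the Hbb-bs median of the high group rests on hexagons 7A2, 7C2 and 7C4.

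Among receptors, 13 of 26 listed neuropeptide receptor genes were tested, with 9 positive and 4 negative fold changes, a median of 0.15 against -0.03 over all genes tested, and 2 at an unadjusted p under 0.05, both lower. Oprl1, the nociceptin receptor, had 59.0, 79.4 and 242 CPM in the high group and 135, 206 and 298 CPM in the low group (-0.93, SE 0.32). Gpr101, an orphan receptor, had medians of 3.82 and 100 CPM (-2.61, SE 1.01). Vipr2, the Vip receptor of the SCN, had medians of 281 and 205 CPM (0.50, SE 0.99), and in column C it had at most 29.0 CPM. Calcr, the calcitonin receptor, ranged from 0 to 326 CPM in the high group and from 0 to 299 CPM in the low group.

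The lists of Vip-side and Avp-side markers were read beside these. Of 9 Vip-side genes tested, 6 had a positive fold change (median 0.17), and Vip alone had an unadjusted p under 0.05. Of 8 Avp-side genes, 5 had a negative fold change (median -0.60), and Penk, Gpr101 and Nos1 had an unadjusted p under 0.05. Over all genes tested, 1.08% were higher and 1.65% lower in the high group at that level (edgeR). Nos1, neuronal nitric oxide synthase, had medians of 3.35 CPM in the high group and 26.9 CPM in the low group (-2.46, SE 1.03). The high-group medians of Gpr101 and Nos1 lay below 17 CPM, the largest limit for a count of 0. Some genes stand in more than 1 of these lists, so the lists are not independent of one another.

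The molecular clock was divided evenly, with 11 positive and 11 negative fold changes among 22 genes tested and a median of -0.02. Per1 had 37.9, 168 and 259 CPM in the high group and 70.2, 150 and 320 CPM in the low group (0.16, SE 0.40), and Per2 had medians of 88.5 and 116 CPM (-0.42, SE 0.59). Both are core clock repressors. Cry1, their partner, was the clock gene with the lowest p, with medians of 6.11 and 44.5 CPM (-2.16, SE 1.03, unadjusted p = 0.0488, edgeR). Its groups overlapped, since high hexagons reached 48.0 CPM and hexagon 7C6 of the low group had 1.16 CPM.

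Of 15 SCN transcription factor genes tested, 6 had a positive fold change. Pou2f2, an octamer-binding factor, had 14.4, 66.4 and 108 CPM in the high group and 5.79, 10.1 and 35.6 CPM in the low group (2.06, SE 0.61, unadjusted p = 0.00316, edgeR). All high hexagons but 7B3 and 7C4 lay above every low hexagon. Rorb, a retinoid-related orphan receptor, had medians of 1185 and 1111 CPM (-0.21, SE 0.56).

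In G-protein and cAMP signalling, 13 of 23 genes tested had a positive fold change (median 0.05). Ppp1r1a, inhibitor 1 of protein phosphatase 1, had 279, 377, 360 and 433 CPM in the 4 high hexagons of columns A and B. Its low hexagons there had 187, 21.7, 44.6, 87.6, 99.9 and 43.0 CPM, and all 3 hexagons of column C were at or below 55.8 CPM. The log2 fold change was 1.81 (SE 0.66, unadjusted p = 0.0142, edgeR). Pde4d, a cAMP phosphodiesterase, had medians of 179 and 75.3 CPM (1.07, SE 0.40).

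Signalling, synapse and channel lists had members on both sides. GABA signalling had 8 positive and 13 negative fold changes, with Gabra5, the alpha 5 receptor subunit, at medians of 29.8 and 7.45 CPM (2.41, SE 1.03). Glutamate receptors were divided 9 to 9 with none at an unadjusted p under 0.05, and Grm7, a metabotropic receptor, had the lowest p of them (-1.60, SE 1.00). Of 34 vesicle release genes 21 had a positive fold change (median 0.06). Chga, a dense-core granule protein, had a log2 fold change of 0.71, Pcsk1, a prohormone-processing enzyme, 1.14, and Unc13a -1.05.

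Membrane channels had 17 of 28 positive (median 0.14), with Hcn4, a pacemaker channel, at medians of 15.6 and 5.70 CPM (2.59, SE 1.12). These medians lay below 17 CPM, the largest limit for a count of 0. So did the low-group medians of Gabra5 and Pou2f2 and the high-group median of Cry1. Immediate early genes had 6 of 11 positive (median 0.01), with none at an unadjusted p under 0.05. Their lowest p belonged to Homer1, a postsynaptic scaffold (0.79, SE 0.79). Axon and neurofilament genes had 4 of 13 positive (median -0.08), and Ina, an intermediate filament protein, had the lowest p of them (0.56, SE 0.32).

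Imprinted genes had 17 of 22 negative fold changes (median -0.24, against -0.03 over all genes tested). Ndn, necdin, had 1150.3 to 1858 CPM in the high group and 1824 to 2385 CPM in the low group (-0.34, SE 0.14). Nap1l5, a nucleosome assembly protein family member, had medians of 1756 and 2184 CPM (-0.32, SE 0.13), and Ube3a, a ubiquitin ligase, 421 and 577 CPM (-0.48, SE 0.17). Ube3a overlaps the antisense transcript Snhg14, so its reads are uncertain. Of 12 mitochondrially encoded genes 11 had a negative fold change and none an unadjusted p under 0.05 (median -0.10, or -0.07 with library size alone). The mitochondrial share of counts was 1.17% to 2.37% in the high group and 1.31% to 2.30% in the low group.

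**Figure D3:**
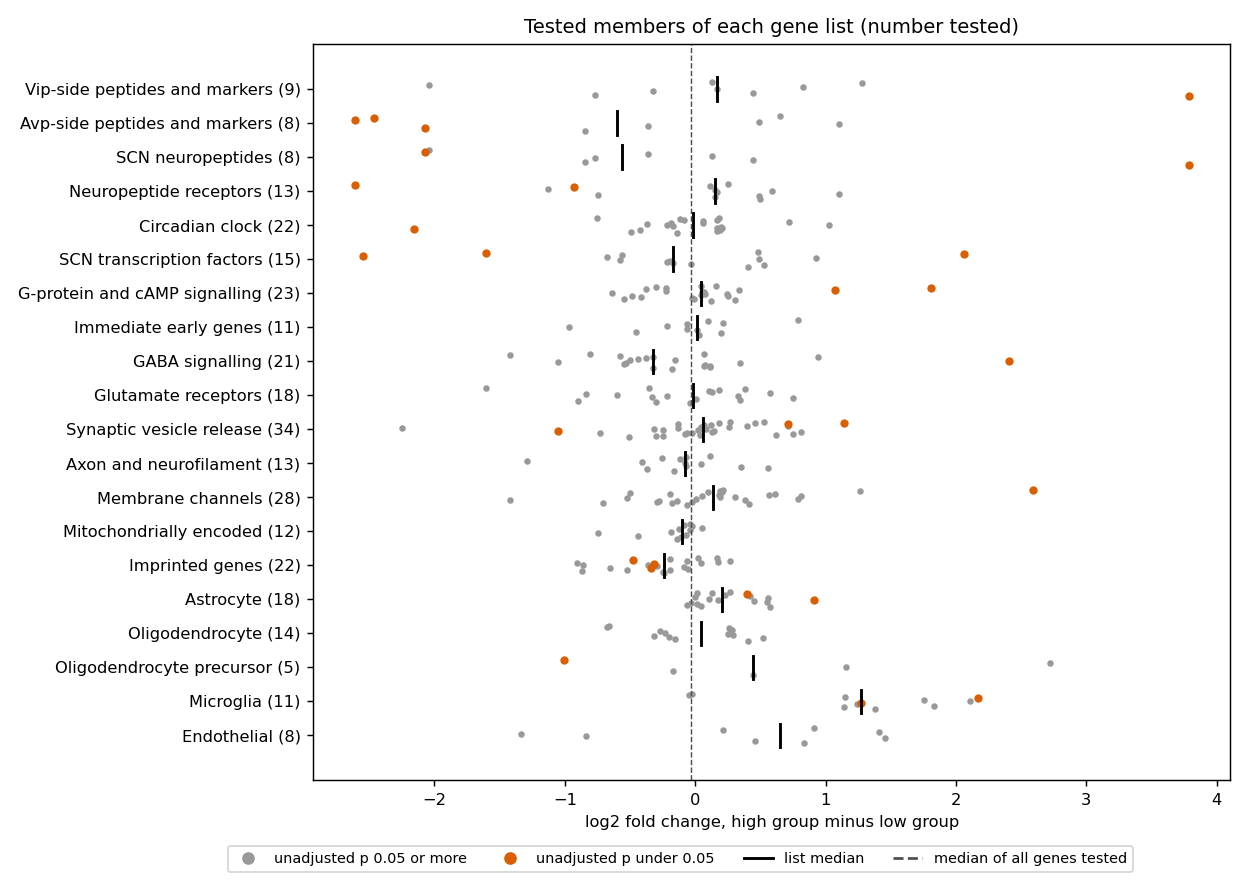
Each point is the log2 fold change (high minus low group) of 1 tested gene of section 335, arranged by gene list with the number tested in brackets. Black bars are list medians and the dashed line is the median of all genes tested, -0.03. Orange points have an unadjusted p under 0.05, and none of them passed adjustment. Lists with fewer than 5 tested genes are not drawn, and the microglial median is 1.27.

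Markers of other cell types varied widely between hexagons. Of 11 microglial genes tested (of 12 listed) 9 had a positive fold change, with a median of 1.27, and Ctss and C1qb, a complement subunit, had an unadjusted p under 0.05. The summed microglial level was 234 to 1149 CPM in the high group (median 558) and 65.4 to 598 CPM in the low group (median 170). The sums overlapped, with an exact two-sided permutation p of 0.0163 and an adjusted p of 0.277 over the 17 values. Defining microglial genes were at 0 in some hexagons of both groups, Cx3cr1 and P2ry12 among them, at total counts that set the limit given above.

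Of 18 astrocyte genes 15 had a positive fold change, 17 with library size alone and 16 with size factors of DESeq2's kind (median 0.20). Gjb6, connexin 30, had medians of 334 and 190 CPM (0.91, SE 0.33), and Glul, glutamine synthetase, 568 and 473 CPM (0.40, SE 0.19). The summed astrocyte levels overlapped, at 9325 to 18909 CPM in the high group and 8486 to 12996 CPM in the low group (exact permutation p = 0.373). Their medians were 10917 and 11762 CPM. Hexagons 7C2 and 7C4 of column C had the largest sums, 18909 and 16592 CPM. In columns A and B the sums were 9325 to 11133 CPM in the high group and 8486 to 12318 CPM in the low group. Oligodendrocyte genes were divided 7 to 7. Mbp, myelin basic protein, had medians of 1401 and 975 CPM (0.41, SE 0.40).

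Hexagon 7A2 carried 16993 CPM of summed erythrocyte transcripts and 17095 CPM of summed meningeal transcripts, the latter mostly Ptgds, prostaglandin D synthase, at 16172 CPM. The next highest sums were 2235 CPM and 2717 CPM. Erythrocyte sums were 22.1 to 16993 CPM in the high group and 7.26 to 68.3 CPM in the low group (exact permutation p = 0.0676). Endothelial, mural, precursor and ependymal sums overlapped between the groups, with exact permutation p-values of 0.745 to 0.972. Of 10 genes listed for ependymal cells and tanycytes, 2 passed the filter on low counts, Nnat and Vim. Nnat also stands in the imprinted list, so this sum need not follow those cells. Hexagon 7A2 also had the highest endothelial sum, 1925 CPM against at most 832 CPM elsewhere, and the highest mural sum, 1783 CPM against at most 833 CPM. Among the genes of lowest p in these lists, Cspg5 had a log2 fold change of -1.01 (SE 0.36), Slco1a4 1.41 (SE 0.69), Vtn 3.62 (SE 1.80) and Vim 2.55 (SE 1.02). Without hexagon 7A2, Slco1a4 had a log2 fold change of 0.56, Vtn 0.70 and Vim 2.18. The part of these other cells in the gene differences was not tested. With hexagons 7A2 and 7C4 left out the number of genes called was again 0, and the Vip log2 fold change was 4.24.

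**Figure D4:**
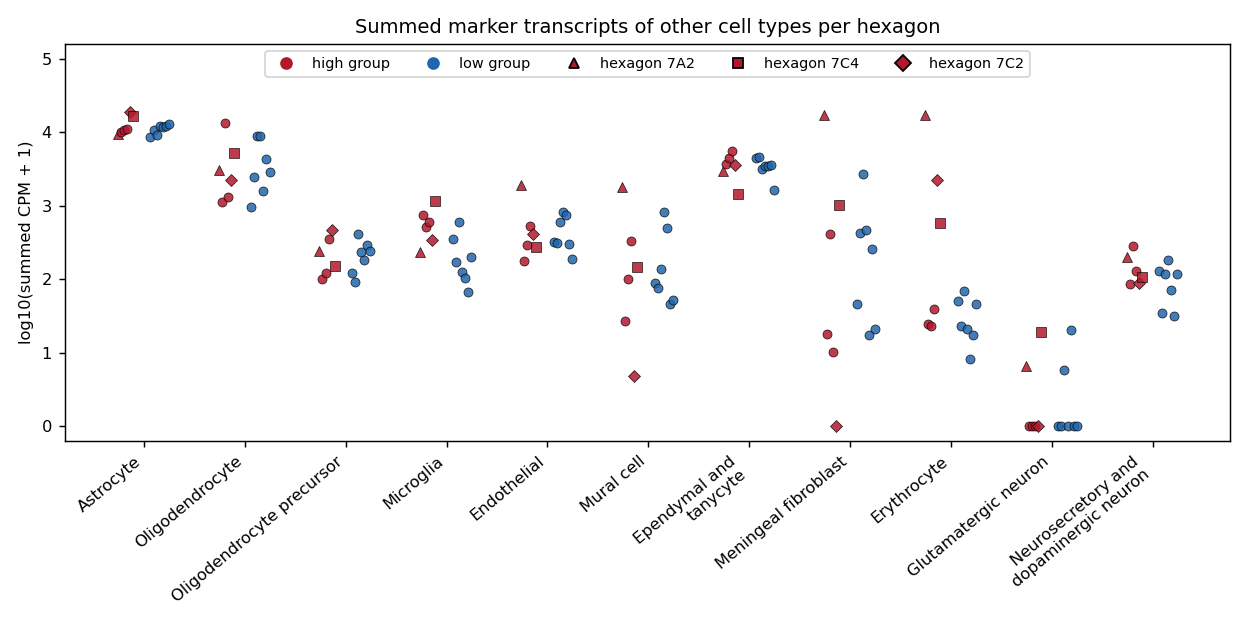
Each point is log10(summed CPM + 1) of the markers of 1 other cell type in 1 hexagon of section 335, with the high group in red and the low group in blue. Hexagons 7A2, 7C4 and 7C2 have their own symbols. Hexagon 7A2 lies above the rest for erythrocyte (16993 CPM), meningeal (17095 CPM), endothelial (1925 CPM) and mural (1783 CPM) sums, and the microglial sums of the groups overlap.

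The same division was made in the neighbouring sections 287 (6 high and 8 low hexagons) and 383 (3 and 3), and each section's difference was tested against that of section 335 in 1 fit of 10908 genes. No gene passed for either section (0% called). At an unadjusted p under 0.05, 339 genes (3.11%) differed from section 287 and 691 (6.33%) from section 383. Within their own sections the high and low groups differed at that level in 298 genes (2.73%) in section 287 and 678 (6.22%) in section 383, and 0 passed in either (0%). The values of the 3 sections come from separate hexagons, and whether the sections share an animal is not given in the labels.

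Vip in section 287 had a log2 fold change of 3.20 (SE 1.24), and section 335 differed from it by 0.57 (SE 1.72, 95% interval -2.80 to 3.95). In section 383 it was -1.28 (SE 1.85), a difference of 5.05 (SE 2.38, 95% interval 0.39 to 9.71, unadjusted p = 0.0427, adjusted p = 0.775, edgeR). Penk was negative in all 3 sections, at -2.07 in section 335, -1.54 (SE 0.60) in 287 and -1.13 (SE 0.84) in 383, and its differences between sections were within their errors. Avp differed by 0.59 (SE 1.22) from section 287 and by -0.79 (SE 1.52) from section 383, and Nms by 0.66 (SE 0.91) and 1.50 (SE 1.15).

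Nptx1 had the lowest p of all genes in the contrast with section 287. It was -2.33 in section 335 but 2.21 (SE 0.61) in section 287 and 2.61 (SE 1.03) in section 383. Its values in section 287 were 43.3 to 318 CPM in the high group and 0 to 99.6 CPM in the low group, and in section 383 they were 36.6 to 43.1 CPM and 0 to 11.7 CPM. The difference was -4.56 (SE 0.90, unadjusted p = 8.86e-06, adjusted p = 0.0967, edgeR) against section 287 and -4.97 (SE 1.24, adjusted p = 0.263, edgeR) against section 383, so neither passed.

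Ctss was 2.17 in section 335 and -2.29 (SE 0.76) in section 287, where it had 0 to 81.3 CPM in the high group and 9.02 to 151 CPM in the low group. That difference was 4.44 (SE 1.00, adjusted p = 0.256, edgeR), and against section 383 it was 1.90 (SE 1.17). In the contrast with section 383 the lowest p was that of Ripor2, -5.93 (SE 1.18, adjusted p = 0.0579, edgeR), which passed with an adjusted p of 0.0144 when the spread was estimated over all 82 hexagons. Ripor2 overlapped between the groups of section 335, with 9.77 to 59.5 CPM in the high group (median 33.9) and 25.9 to 111 CPM in the low group (median 44.8). In section 383 it had 10.9 to 104 CPM in the high group and 0 to 2.87 CPM in the low group.

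**Figure D5:**
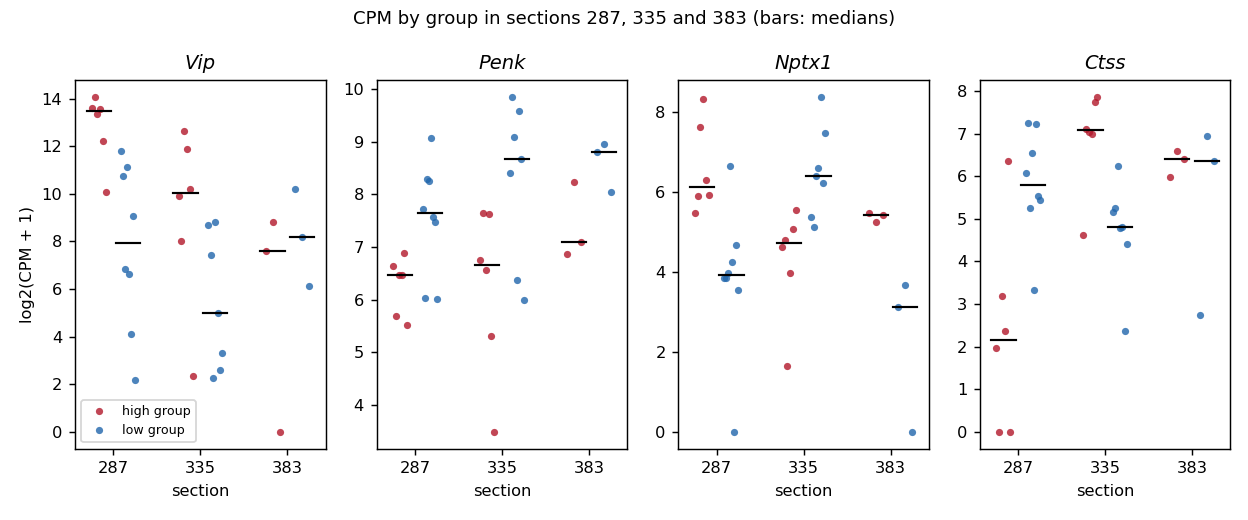
Each point is log2(CPM + 1) of Vip, Penk, Nptx1 or Ctss in 1 hexagon of section 287, 335 or 383, scaled over all 82 libraries, with the high group in red, the low group in blue and bars at medians. Vip and Penk lie on the same sides in sections 287 and 335, while the Nptx1 medians lie on opposite sides, with log2 fold changes of 2.21 and -2.33.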

How the data were processed

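Per the submitters' processing notes, reads were demultiplexed with bcl2fastq 2 and aligned with STAR to GRCm38, while for the counting tool the sources used here name none. The authors deposited raw read counts per gene and a table of RPKM values, the latter computable from the former by gene length. Symbols came from the RPKM table for 27055 genes and from the reference annotation for 455, and 5 had none. Counts were used as deposited. Members, gene lists and tests were chosen with earlier results of these data known.

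Genes with at least 10 counts in at least 6 of the 13 hexagons were tested with edgeR 4.0.16 (R 4.3.3; TMM, quasi-likelihood F test, Benjamini-Hochberg adjustment, threshold 0.05). Single values were compared by exact two-sided permutation of the 1716 divisions (scipy 1.17.1) on log2(CPM + 1), pseudocount 1, or on log2 totals. Sections were contrasted by an interaction term. DESeq2 1.42.0 and other settings were alternatives. The script was tested on simulated data. Named genes were, as none passed, the 10 of lowest p per direction with mean CPM of 50 or more and a stable sign with each hexagon left out, the lowest-p member of each list, and 12 genes chosen by name, except that some results are not reported here; lists with at most 5 members at an unadjusted p under 0.05 also had these named. No 2 libraries were identical (pairwise r of log2(CPM + 1) 0.733 to 0.911). Counts carry no molecular identifiers, so limits cover counting error only.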

Additional observations from a re-analysis of the deposited data

Results flagged for a closer look

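Of 128 groups of hexagon values examined, 15 had 1 hexagon far from the others of its group. The limit used gives about 1 in 20 for normally distributed values, and whether these values are so distributed was not tested. The groups share hexagons and are not independent, so the number 15 cannot be read as an excess. In the high group, hexagon 7A2 was low for Ctss, at 22.8 CPM against 125 CPM or more in the others, and for Pcdh10, at 39.9 CPM against 80.8 CPM or more. Hexagon 7C4 was low for Mtss1, at 96.8 CPM, for Per1, at 37.9 CPM, and for Prok2, at 0 CPM against 84.7 CPM or more. Hexagon 7C2 was low for Per2, at 0 CPM, and had 8121 genes detected against 10992 to 12656 in the other 5. Hexagon 7B3 was low for Gabra5, at 0.655 CPM, and high for Ube3a, at 569 CPM against 389 to 431 CPM.

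In the low group, hexagon 7B7 was high for Pcdh10, at 301 CPM against 125 to 166 CPM. Hexagon 7A6 was low for Rfk, at 80.0 CPM, hexagon 7A8 for Ddc, at 0.374 CPM, and hexagon 7B9 for Calcr, at 0 CPM. Hexagon 7C6 was low for Cry1, at 1.16 CPM against 40.9 to 127 CPM, and for the summed ependymal and tanycyte markers, at 1646 CPM against 3128 CPM or more. Of these markers only Nnat and Vim passed the filter on low counts. The causes were not tested.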

How the results depend on the processing

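The number of genes called between the groups was 0 in all 27 alternatives, 13 of which left out 1 hexagon each. At an unadjusted p under 0.05 there were 266 of 9746 genes. Of the same 9746 genes there were 417 with the spread estimated over all 82 hexagons, 512 without column C and 406 without hexagon 7C4. Leaving out 1 hexagon gave 234 to 406. With no filter on low counts 17757 genes were tested, and 1949 of them were at that level. Against section 383, 1 gene passed with the spread over all 82 hexagons. The Vip permutation difference ranged from 3.02 to 5.08 with 1 hexagon left out, and was 4.81 without column C and 5.24 without hexagons 7A2 and 7C4. No paired analysis was possible because the labels give hexagons no replicate numbers, but grid column was fitted as a factor, under which 0 genes were called and the log2 fold changes were 4.01 for Vip and -1.69 for Penk. Leaving out column C, or hexagons 7A2 and 7C4, was chosen after seeing the data.

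The sign of 29 values changed, none of them past a threshold, and the cause was not tested. With 1 hexagon left out, the log2 fold change ranged from -0.092 to 0.71 for Nms, -0.38 to 1.07 for Prok2, -1.20 to 0.16 for Cck, -0.019 to 0.76 for Vipr2, -3.4e-04 to 0.44 for Per1, -0.36 to 0.59 for Calcr, -0.26 to 1.05 for Homer1 and -0.80 to 4.26 for Ptgds. The Nms permutation difference ranged from -0.88 to 0.52. With grid column as a factor, Cck had 0.23 and Calcr -0.0051. With library set as a factor, Calcr had -0.20 and Ptgds -0.058, and in set G alone -0.19 and -0.70. With outer hexagons only, Cck had 0.11, Calcr -0.14, Homer1 -0.23 and Ina -0.056. Without hexagons 7A2 and 7C4, Homer1 had -0.25, Ptgds -2.23 and the Nms permutation difference 0.50. Without column C, the Nms permutation difference was 0.77. The Cck slope was 0.034 per 100 units. At these depths and group sizes, genes near the filter are measured least precisely.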
